A study of Caenorhabditis elegans with 2 samples.

Results

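Binding of tagged DAF-12 was examined at 8 heterochronic genes, lin-4, lin-14, lin-28, hbl-1, lin-41, lin-29, lin-42 and lin-46, of 46890 annotated nuclear genes. They were chosen by name, and 7 of them are protein-coding while lin-4 is a microRNA gene. A region was assigned to a gene when its summit, the position of highest signal, lay within the gene or 3 kb to either side of it. The 8 windows cover 124 kb and held 57 of 30000 regions in the pooled list, 57 of 30000 in the replicate 1 list and 46 of 23934 in the replicate 2 list. No pooled region was assigned to more than 1 of the 8 genes.

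The data come from chromatin immunoprecipitation and sequencing (ChIP-seq) of an eGFP fusion of DAF-12 in whole L4 larvae of C. elegans. There is 1 group, L4 larvae of strain OP222, genotype unc-119(ed3) III; wgIs222, with both sexes pooled, in 2 biological replicates. All animals carry both the unc-119 mutation and the wgIs222 insertion that supplies tagged DAF-12. The labels give neither the number of copies of the insertion nor the cells in which it is active, and the lists come from whole animals with all tissues together.

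The heterochronic genes order the fates that skin and other cells of the worm adopt at each larval stage. Early genes such as lin-14, lin-28 and hbl-1 hold cells at early fates until microRNAs of the lin-4 and let-7 families silence them, and lin-29 then drives the switch to adult skin. DAF-12, a nuclear receptor bound by dafachronic acids, is known to tie this series to hormone state, in part by acting on genes of let-7 family microRNAs, and it recognises the hexamers AGTGCA and AGGACA, which can stand as direct repeats.

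The lists were made as input for a test of reproducibility between replicates and, by their deposited type, hold background as well as peaks. The signal of a region is the authors' own value on a scale that is not stated, so signals are compared only within a list, and ranks run from 1 for the strongest region. A q-value below 0.05 was reached by 5.61% of nuclear pooled regions, 16.6% of nuclear replicate 1 regions and 59.6% of nuclear replicate 2 regions. That value thus takes in far more of the replicate 2 list. The lowest replicate 2 q at the 8 genes, 0.00357, was shared by their regions from rank 132 to rank 2854, so it does not grade them. A further list, thresholded by the authors for reproducibility, had 48 peaks with signals of at least 19.80. None of the 48 lay at the 8 genes, whose strongest pooled region had a signal of 13.73. The share of all genes with such a peak within 3 kb was not counted, so nothing is read from this absence. Depth is unknown and no contrast between conditions exists, so no test was made. The main counts below stand beside the same counts over all genes or regions.

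Every one of the 8 genes had a pooled region within 3 kb, which is also the usual state of a gene in this list. Among all nuclear protein-coding genes 90.9% had one, and among nuclear microRNA genes 90.8%. Pooled regions of q below 0.05 were found at 2 of the 7 protein-coding members, lin-14 and lin-42, against 13.7% of all protein-coding genes. Of the 57 pooled member regions 4 reached that value (7.02%), close to the 5.61% of the whole list. In replicate 1 alone, 6 members had a region of q below 0.05, all of them protein-coding and all but lin-28, against 35.7% of protein-coding genes. In replicate 2 alone, 7 members did, namely lin-4 and every protein-coding member but hbl-1, against 70.6% of protein-coding genes. Of the protein-coding members only lin-46 (7.88 kb) has a window below the median protein-coding window of 8.03 kb. The windows of lin-14 (26.3 kb), lin-42 (25.1 kb), lin-29 (23.7 kb), lin-41 (13.7 kb), hbl-1 (11.6 kb) and lin-28 (9.18 kb) are above it. The part of window length in these counts, and in the later comparisons with all protein-coding genes, was not tested.

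**Figure D1:**
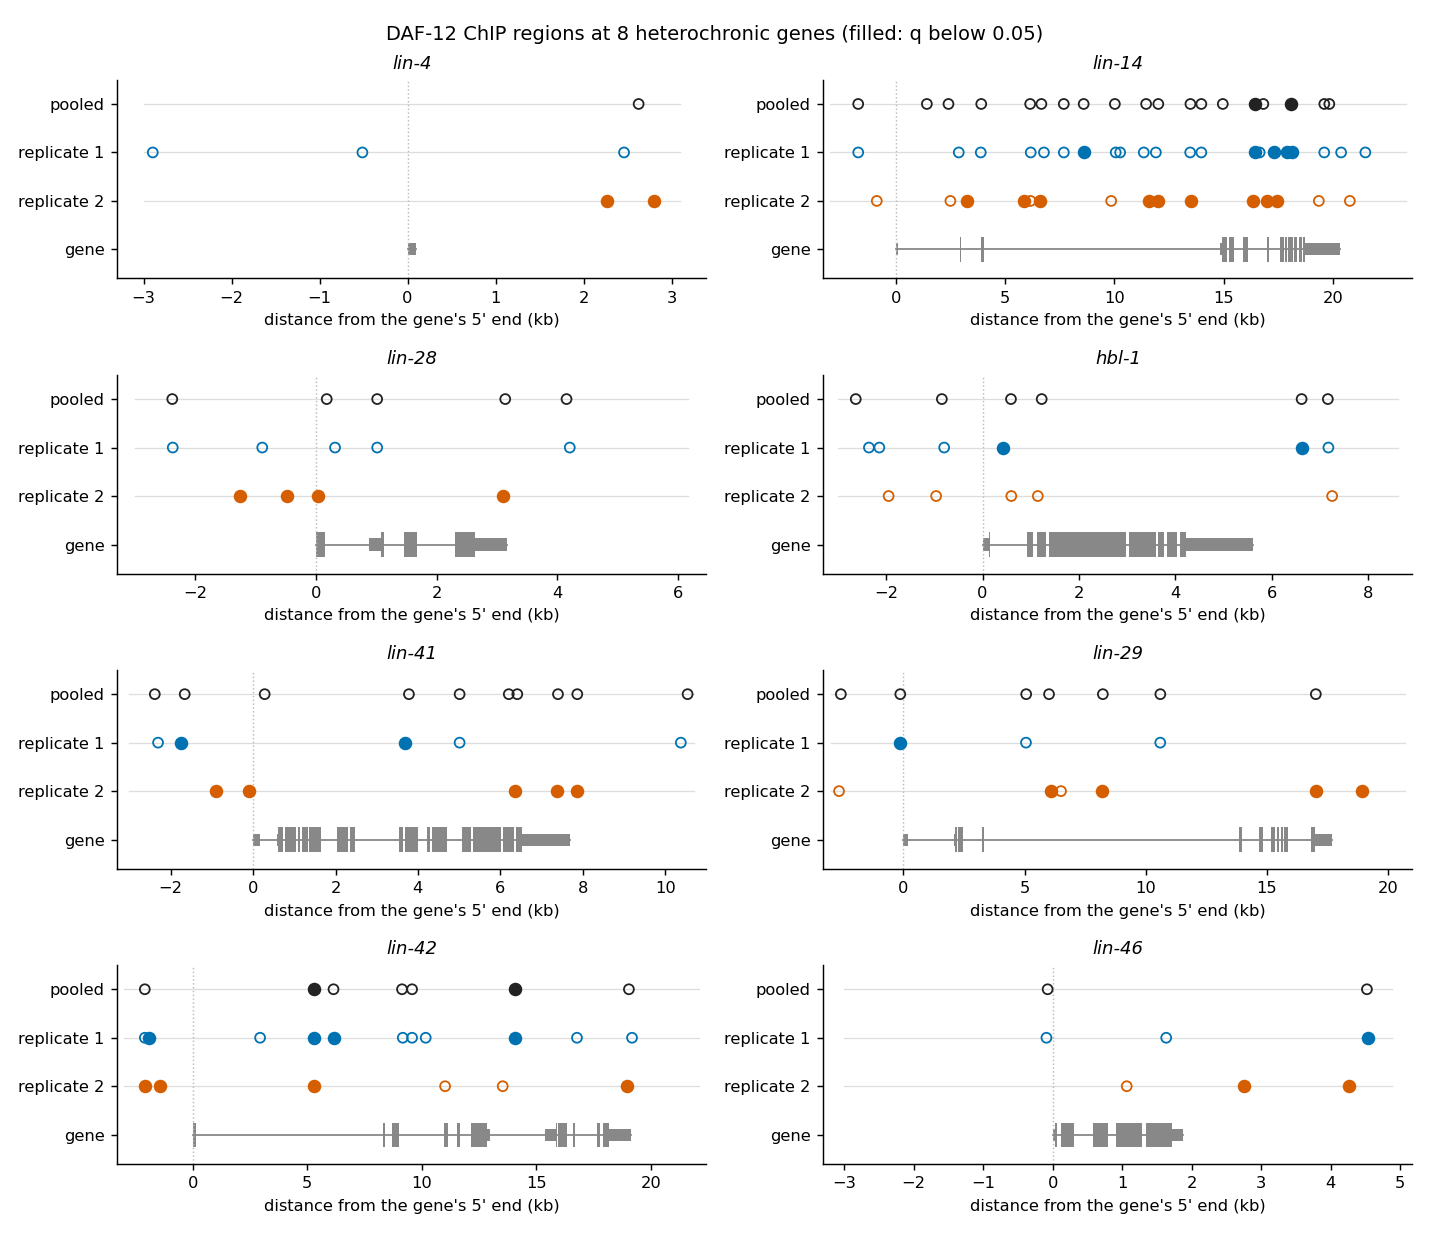
Each panel is 1 gene, with distance from the gene's 5' end in kb on the horizontal axis and 1 row each for the pooled, replicate 1 and replicate 2 lists. Circles are summits, filled where q was below 0.05, and grey boxes are exons (tall for coding, low for untranslated). Filled pooled circles stand at lin-14 and lin-42 alone, with 2 at each.

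The microRNA gene lin-4 encodes the small RNA that silences lin-14 and lin-28. Its mature form is shown with the seed, bases 2 to 8, in capitals, from RefSeq coordinates on WBcel235 (chrII:5902269-5902289, plus strand).
lin-4: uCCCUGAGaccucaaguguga
The gene itself (chromosome II, 5902254 to 5902347) lies inside an intron of the protein-coding gene F59G1.4 and had few regions. Its only pooled region had a signal of 6.56, ranked 10202 (34.0% of the list) and had a q of 0.385. The summit lay 2626 bp downstream of lin-4 and inside tsp-18, which encodes a tetraspanin, 328 bp past the start of that gene. Of all nuclear microRNA genes 51.7% had a region at least as strong. In replicate 1 the strongest of 3 regions ranked 7646 with a signal of 5.35, and in replicate 2 the stronger of 2 ranked 2292 with a signal of 4.92. Both of these also lay in tsp-18. The 1 pair of regions shared by the replicates stood at the tsp-18 start, with summits 196 bp apart. A shared region within 3 kb was found at 29.1% of microRNA genes. Only 1 region in any list lay in the promoter of lin-4, from 1 kb upstream to 200 bp downstream of its start. It was a replicate 1 region 513 bp upstream, with a signal of 3.42, a rank of 22679 and a q of 0.516.

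The largest number of regions was found at lin-14, which encodes a DNA-binding protein that holds cells at fates of the first larval stage. The gene (chromosome X, 11465560 to 11485871, plus strand) had 19 pooled regions, 21 in replicate 1 and 15 in replicate 2. Regions of a list can overlap and each was counted, as with the pooled regions of ranks 4304 and 17601 there. The pooled density was 0.722 regions per kb of its window against 0.330 per kb of the X chromosome, and 2.20% of protein-coding genes had a density at least as high. In the replicates the densities were 0.798 per kb against 0.326 in replicate 1 and 0.570 per kb against 0.272 in replicate 2. Of the 19 pooled summits 14 lay in introns, 9 of them in the long intron 3. Introns are numbered along the longest transcript that spans the summit.

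The strongest pooled region at lin-14 was in intron 5, 1624 bp downstream of the second of its annotated starts. It had a signal of 12.72, ranked 377 (1.26% of the list) and had a q of 0.0146. Both replicates had a region there. In replicate 1 it had a signal of 8.16, rank 1292 and q 0.00736, and in replicate 2 a signal of 5.49, rank 1378 and q 0.00357, with the summits 119 bp apart. A strongest pooled region at least this large was found at 3.03% of all protein-coding genes. The other pooled region of q below 0.05 lay in a coding exon 3268 bp downstream of that start, with a signal of 10.06, rank 1627 and q 0.0495. It overlapped the replicate 1 regions of ranks 494 and 1552 and no replicate 2 region, and the first of these, of signal 9.59 and q 0.00912, was the strongest replicate 1 region at the gene. The strongest replicate 2 region at the gene, of rank 1000 and signal 5.81, lay in intron 6 and overlapped a replicate 1 region of rank 3298 and signal 6.68, but no pooled region.

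A weaker region of lin-14 intron 5 holds the only direct repeat of the hexamers in the 8 windows. Windows of 201 bases around 2 pooled summits are shown (ce11, plus strand). One is the strongest pooled lin-14 region, which holds neither hexamer, and the other holds AGTGCA and AGGACA, in capitals, in the same direction with a spacer of 5 bases.
lin-14 rank 377, chrX:11481885-11482085: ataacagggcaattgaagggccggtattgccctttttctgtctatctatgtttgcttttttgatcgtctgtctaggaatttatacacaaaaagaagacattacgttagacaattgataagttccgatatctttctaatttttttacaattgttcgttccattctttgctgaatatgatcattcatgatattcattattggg
lin-14 rank 12297, chrX:11482261-11482461: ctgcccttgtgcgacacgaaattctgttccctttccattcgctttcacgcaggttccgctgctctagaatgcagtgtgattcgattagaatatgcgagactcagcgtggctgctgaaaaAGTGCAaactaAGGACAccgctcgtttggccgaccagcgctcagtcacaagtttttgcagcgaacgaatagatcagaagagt
The repeat lies at chrX:11482380-11482396, and its hexamers are centred 21 and 32 bp from the summit of the pooled region. That region had a signal of 6.16, rank 12297 and q 0.455, and it overlapped the replicate 1 region of rank 12236 and the replicate 2 region of rank 1299. Neither of these replicate regions holds the whole repeat. The search for such repeats, with either hexamer in either place, a spacer of 5 bases and both strands read, was chosen after seeing the data. The nuclear genome holds 84 of them, or 0.838 per Mb, and 8 of 29972 nuclear pooled regions (0.0267%) have one within 100 bp of the summit.

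The largest number of overlapping replicate regions was also at lin-14. Of its 21 replicate 1 regions 9 overlapped a replicate 2 region, against 18.2% of nuclear replicate 1 regions, and 6 of these 9 pairs lay in intron 3. Their ranks in replicate 1 ran from 1292 to 29221 and in replicate 2 from 1000 to 19209. The closest pair, in intron 3, had summits 10 bp apart. It ranked 10514 in replicate 1 and 18361 in replicate 2, so close summits did not go with high ranks there. The part of region density in the number of overlaps at lin-14 was not tested.

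**Figure D2:**
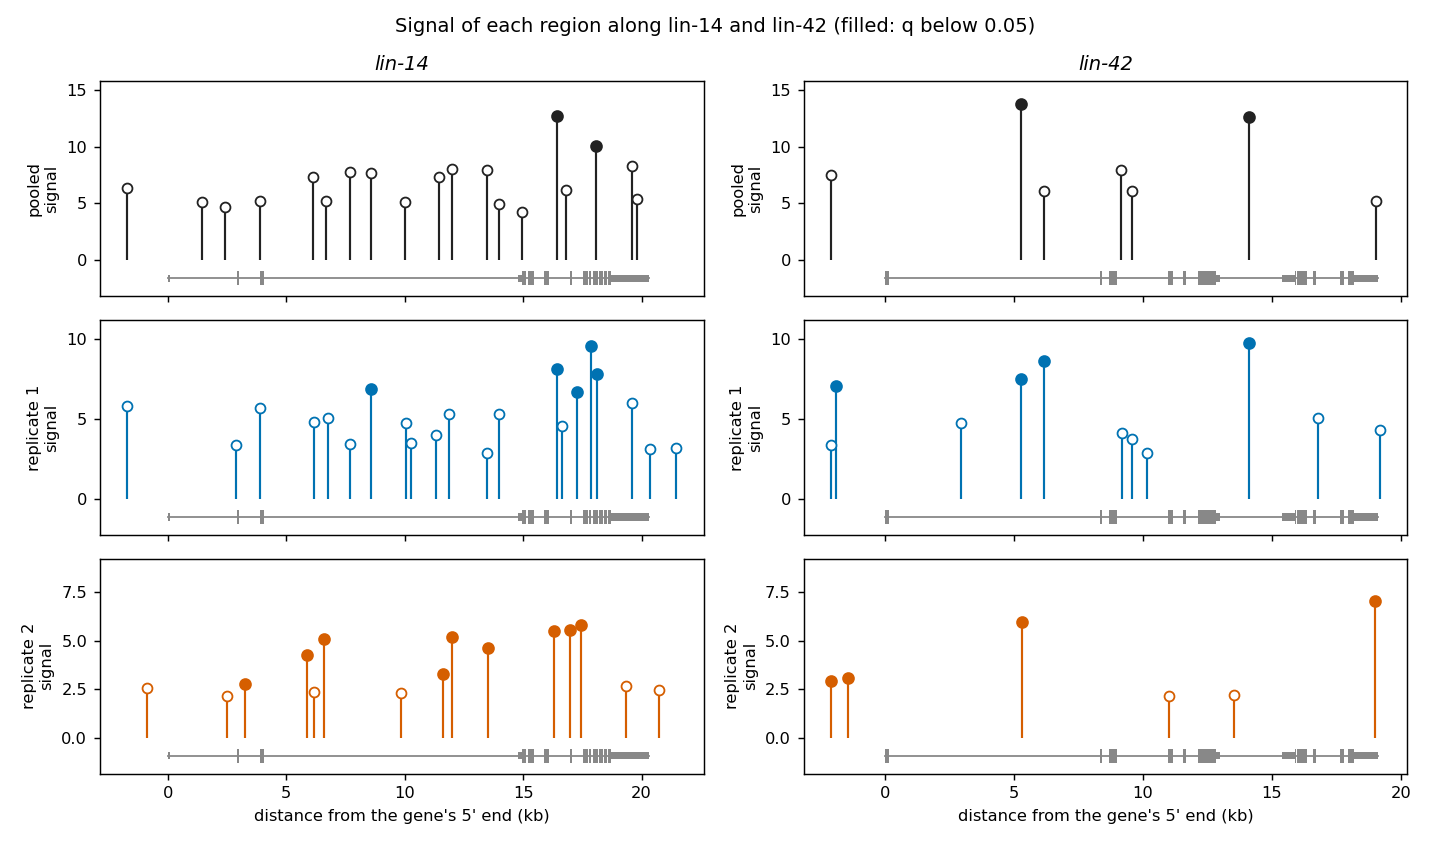
Vertical lines give the signal of each region along lin-14 (left) and lin-42 (right), with distance from the gene's 5' end in kb and a panel each for the pooled, replicate 1 and replicate 2 lists, whose signal scales differ. Filled circles mark q below 0.05. At lin-14 the strongest pooled region, of signal 12.72, stands in the 3' part of the gene, and at lin-42 the strongest, of signal 13.73, stands in the first intron.

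Regions at lin-28, which encodes an RNA-binding protein that blocks maturation of let-7, were of middle rank and differed between replicates. The gene (8407630 to 8410804, minus strand) lies on chromosome I and had 5 pooled regions, 5 in replicate 1 and 4 in replicate 2. Its strongest pooled region had a signal of 8.48, rank 3829 and q 0.148, with the summit in the 5' UTR 131 bp downstream of a lin-28 start. The same place ranked 7313 in replicate 1 with a signal of 5.42 and had no overlapping region in replicate 2. The next, 178 bp downstream of another lin-28 start, had a pooled signal of 8.13 and rank 4615, and overlapped regions of rank 23555 in replicate 1 and 4383 in replicate 2. The replicate regions did not overlap each other, and the nearest summits of the replicates at this gene were 291 bp apart. In replicate 2 the strongest region, of signal 4.39 and rank 3680, lay 1253 bp upstream of a lin-28 start. The start of the neighbouring gene F02E9.7 was nearer, with the summit 365 bp upstream of it. All 4 replicate 2 regions at lin-28 had a q below 0.05, and no replicate 1 or pooled region there did.

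At hbl-1, which encodes a zinc finger protein of the Hunchback family and is a target of let-7 family microRNAs, the strongest regions of the replicates lay far apart in rank. The gene (chromosome X, 5822142 to 5827755, plus strand) had 6 pooled regions, 6 in replicate 1 and 5 in replicate 2. Its strongest pooled summit had a signal of 7.42, rank 6654 and q 0.255, 843 bp upstream of an hbl-1 start. In replicate 1 the strongest region lay in intron 1, 427 bp downstream of a start, with a signal of 8.01, rank 1419 (4.73% of the list) and q 0.00881. The replicate 2 region that overlaps it had a signal of 2.22, rank 20568 and q 0.166, with its summit 170 bp away. The strongest replicate 2 region had a rank of 14822, or 61.9% of its list. Overlapping regions were found at 4 places, 2139 and 795 bp upstream of the first start, in intron 1, and beyond the 3' end next to acp-5. None of the 5 replicate 2 regions at hbl-1 had a q below 0.05, in a list where 59.6% of nuclear regions did.

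At lin-41, which encodes a TRIM-NHL protein silenced by let-7, the number of regions was high in the pooled list and the replicates shared none. The gene (chromosome I, 9334800 to 9342496, minus strand) had 10 pooled regions, 5 in replicate 1 and 5 in replicate 2. Its pooled density of 0.730 regions per kb, against 0.282 per kb of its chromosome, was reached by 2.03% of protein-coding genes. The pooled regions of ranks 6366 and 19669 at lin-41 overlap each other, and each was counted. In replicate 1 its density of 0.365 per kb was reached by 34.7% of protein-coding genes and in replicate 2 its density of 0.365 per kb by 22.9%. The strongest region of any member in replicate 2 lay just past the 3' end of lin-41, with a signal of 8.0, rank 132 (0.552% of the list) and q 0.00357. The pooled region there had a signal of 6.96, rank 8410 and q 0.318, and no replicate 1 region overlapped either. The nearest summits of the replicates at this gene were 858 bp apart. The strongest pooled region, of signal 7.51, rank 6366 and q 0.242, lay in a coding exon. The strongest replicate 1 region, of signal 6.39, rank 3966 and q 0.0289, lay in another coding exon. Near the start, replicate 2 had a region 107 bp upstream with a signal of 4.64 and rank 2958, and the pooled list had 1 of rank 20134 at 281 bp downstream.

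The effector of the larval to adult switch, lin-29, encodes a zinc finger transcription factor. The gene (chromosome II, 11917642 to 11935343, minus strand) had 7 pooled regions, 3 in replicate 1 and 6 in replicate 2. Its pooled density of 0.295 per kb was close to the 0.281 per kb of its chromosome. The strongest pooled region, in intron 4, had a signal of 9.43, rank 2240 and q 0.0775. It overlapped a replicate 1 region of signal 4.73 and rank 11070 and no replicate 2 region. Of the 201 bases around its summit 80.1% are soft-masked as repeats, and 14.0% of its 31-base words occur elsewhere in the genome, the only pooled member region with any such word. The part of repeated sequence in this signal was not tested. At the promoter, a replicate 1 region 118 bp upstream of a lin-29 start had a signal of 8.06, rank 1388 and q 0.00901. The pooled region there had a signal of 4.69 and rank 23840, and replicate 2 had none. The strongest replicate 2 region at the gene, of signal 4.12, rank 4653 and q 0.00591, lay in the 3' UTR. No region of replicate 1 overlapped one of replicate 2, and the nearest summits were 1049 bp apart.

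The strongest regions among the members, in the pooled and replicate 1 lists, were at lin-42, the worm relative of the clock gene Period, which acts on the timing of the molts. The gene (chromosome II, 1233236 to 1252359, minus strand) had 7 pooled regions, 11 in replicate 1 and 6 in replicate 2. Its pooled density was not high, with 0.279 regions per kb against 0.281 per kb of its chromosome. In replicate 1 the density was 0.438 per kb against 0.284, and 21.5% of protein-coding genes reached it. In replicate 2 it was 0.239 per kb against 0.227. Of its pooled regions 2 had a q below 0.05, and the 201 bases around their summits are shown for that reason (ce11, plus strand). Capitals mark TGTCCT, which is AGGACA on the minus strand.
lin-42 rank 218, chrII:1246976-1247176: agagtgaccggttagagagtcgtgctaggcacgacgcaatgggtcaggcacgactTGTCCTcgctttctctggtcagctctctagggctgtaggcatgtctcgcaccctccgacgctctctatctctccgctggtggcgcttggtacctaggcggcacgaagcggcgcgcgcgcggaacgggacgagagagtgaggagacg
lin-42 rank 392, chrII:1238168-1238368: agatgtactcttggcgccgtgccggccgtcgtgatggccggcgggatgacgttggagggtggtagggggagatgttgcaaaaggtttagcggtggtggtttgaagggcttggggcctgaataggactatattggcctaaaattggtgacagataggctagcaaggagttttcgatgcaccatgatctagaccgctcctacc
The first had a pooled signal of 13.73, rank 218 (0.727% of the list) and q 0.0161. It lay in intron 1, 3041 bp upstream of the nearest lin-42 start, and 77 bp downstream of the start of the noncoding RNA gene F47F6.15. Both replicates had a region there, with a signal of 7.54, rank 1923 and q 0.00910 in replicate 1 and a signal of 5.94, rank 868 and q 0.00357 in replicate 2, and the summits were 33 bp apart. The AGGACA copy is centred 43 bp from the pooled summit. A strongest pooled region at least as large was found at 1.68% of all protein-coding genes.

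The other pooled region of q below 0.05 at lin-42 lay in intron 6, 1299 bp upstream of an internal start. It had a signal of 12.66, rank 392 and q 0.0140. It was the strongest region at lin-42 in replicate 1, with a signal of 9.76, rank 435 and q 0.00575, and no replicate 2 region overlapped it. The strongest replicate 2 region, in the 3' UTR, had a signal of 7.03, rank 297 and q 0.00357. It overlapped a replicate 1 region of signal 4.34 and rank 13811 and a pooled region of signal 5.24 and rank 18751. Of the lin-42 regions with a pooled q below 0.05, that of intron 1 alone had a region in both replicates. The G and C content of its 201 bases was 62.7%, and that of the intron 6 region 54.7%, against a median of 35.8% over the 57 pooled member regions and 32.8% over all nuclear pooled regions. No base of the intron 1 window is soft-masked as repeat, against 10.4% in the intron 6 window. The part of base composition in these signals was not tested. No pooled region lay in a lin-42 promoter.

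The gene lin-46 encodes a gephyrin-like protein that acts downstream of lin-28. It (chromosome V, 12968855 to 12970730, plus strand) had 2 pooled regions, 3 in replicate 1 and 3 in replicate 2. The stronger pooled region had a signal of 9.17, rank 2565 and q 0.0911, but its summit lay 4521 bp downstream of the lin-46 start and inside shw-3, a neighbouring potassium channel gene. It overlapped a replicate 1 region of signal 8.26, rank 1205 and q 0.00623 and a replicate 2 region of signal 3.60, rank 7226 and q 0.00699, with summits 274 bp apart and 8 bp of overlap. The summit of that replicate 2 region lay inside pnn-1, another neighbouring gene. So did that of the strongest replicate 2 region at lin-46, of signal 3.92, rank 5483 and q 0.00556. The other pooled region was 73 bp upstream of lin-46, with a signal of 6.58, rank 10101 and q 0.383. Replicate 1 had a region of signal 4.31 and rank 14016 at that place and replicate 2 had none.

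**Figure D3:**
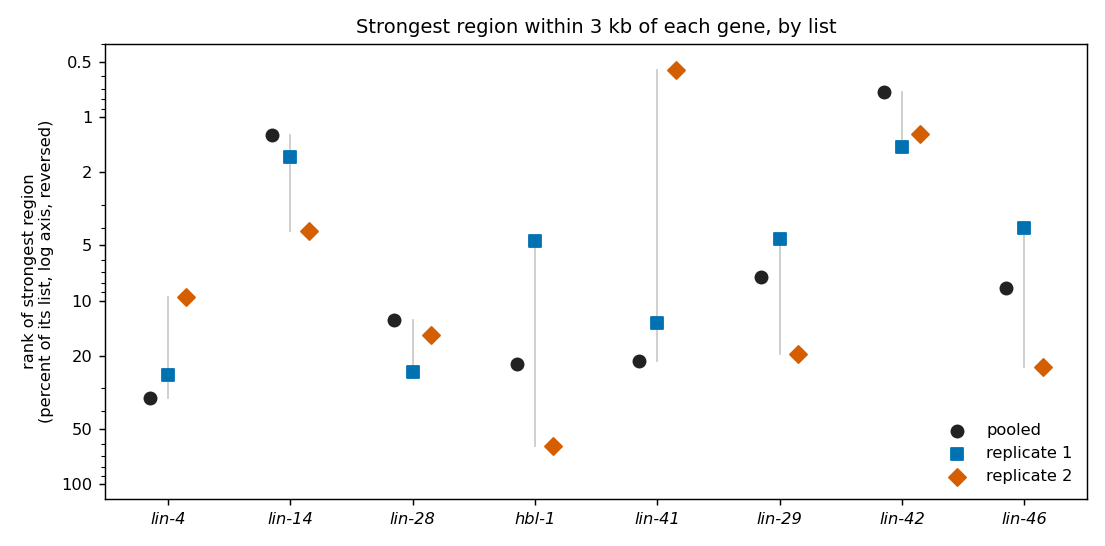
Rank of the strongest region within 3 kb of each gene, as a percent of its list on a reversed logarithmic axis, so that stronger regions stand higher. Circles are the pooled list, squares replicate 1 and diamonds replicate 2, joined by a grey line. The 3 marks lie together within the first 5% at lin-14 and lin-42 and spread from 4.73% to 61.9% at hbl-1 and from 0.552% to 21.2% at lin-41.

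Across the 8 genes, the order of the strongest region changed from list to list. In the pooled list it ran lin-42, lin-14, lin-29, lin-46, lin-28, lin-41, hbl-1 and lin-4. In replicate 1 lin-42 and lin-14 also came first, at 1.45% and 1.65% of the list, and lin-4 last at 25.5%. There hbl-1 stood ahead of lin-41 and lin-46 ahead of lin-29, while in replicate 2 both pairs stood the other way round, so the replicates do not order these neighbours. In replicate 2 lin-41 came first at 0.552%, then lin-42 at 1.24% and lin-14 at 4.18%, and hbl-1 was last. For the 7 protein-coding members the median strongest signal was 9.17 in the pooled list against 7.29 for all protein-coding genes with a region. In the single replicates the medians were 8.06 against 5.48 in replicate 1 and 4.39 against 3.75 in replicate 2. All of these members but lin-46 have windows longer than the median protein-coding window of 8.03 kb. The part of window length in these signals was not tested.

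**Figure D4:**
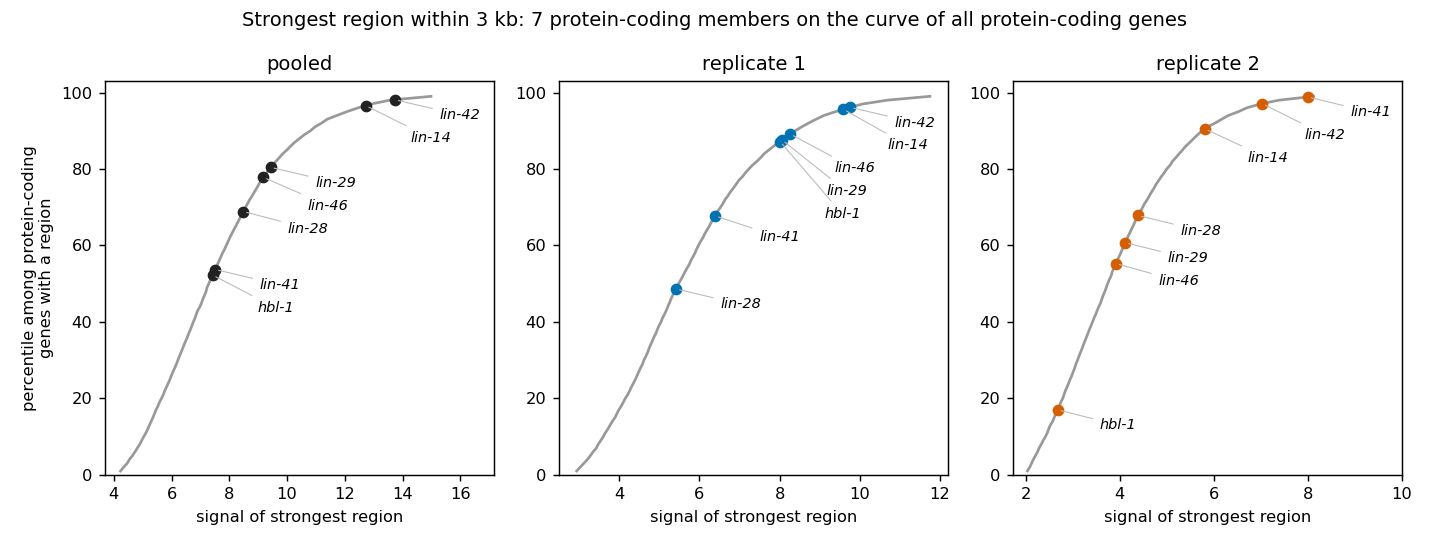
The grey curve gives, for each signal of a gene's strongest region, its percentile among all protein-coding genes with a region, from 1 to 99, in the pooled, replicate 1 and replicate 2 lists. Points are the 7 protein-coding members. In the pooled list all 7 stand above the middle of the curve, and in replicate 2 hbl-1 stands far below it, with a strongest signal that 71.7% of all protein-coding genes reached.

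Regions were denser in the windows of the members than in the genome. The pooled list had 0.461 regions per kb of member windows against 0.299 per kb of the nuclear genome, replicate 1 had 0.461 against 0.299, and replicate 2 had 0.372 against 0.238. In the pooled list lin-41, lin-14, lin-28 and hbl-1 were denser than their chromosomes, lin-29 and lin-42 were close to them, and lin-46 and lin-4 were below. In replicate 1 only lin-29 was below its chromosome, and in replicate 2 none of the 8 was. Without lin-14 the pooled density was 0.391 per kb.

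**Figure D5:**
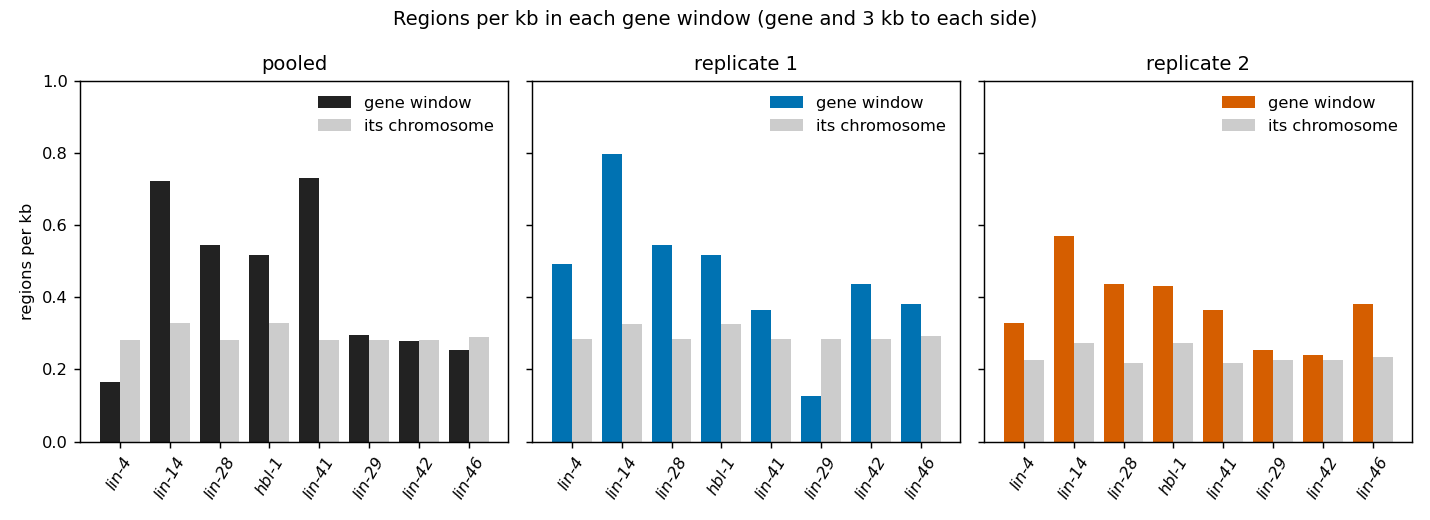
Regions per kb of each gene window (coloured bars) beside regions per kb of the gene's chromosome (grey bars), in the pooled, replicate 1 and replicate 2 lists. At lin-14 the window is above the chromosome in all 3 lists, with 0.722, 0.798 and 0.570 regions per kb against 0.330, 0.326 and 0.272.

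Replicate regions overlapped at 5 of the 8 genes within 3 kb, and at 3 of the 8 within 1 or 2 kb, with an overlap of 50% of both regions, or with summits within 100 bp. Over all genes only the share within 3 kb and at 1 bp of overlap was counted. At least 1 region of replicate 1 overlapped one of replicate 2 at lin-4, lin-14, hbl-1, lin-42 and lin-46 and at none of lin-28, lin-41 and lin-29. That is 4 of the 7 protein-coding members, against 36.3% of protein-coding genes. Of the 57 replicate 1 member regions 19 overlapped a replicate 2 region (33.3%), above the 18.2% of the list, and 9 of the 19 were at lin-14. The member windows also held more replicate 2 regions, 0.372 per kb against 0.238 per kb of the nuclear genome. The part of this density in the overlaps was not tested. Of the 19 pairs 5 had summits within 100 bp of each other. Of the 57 pooled member regions 43 overlapped a replicate 1 region, 29 a replicate 2 region, 18 both (31.6%) and 3 neither. Among all nuclear pooled regions 17.7% overlapped both. The other overlaps of pooled regions, and pairs with summits within 100 bp, were not counted over all regions.

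By position, 27 of the 57 pooled summits lay in introns (47.4%), which make up 43.2% of the windows. In replicate 1 the share was 49.1% and in replicate 2 41.3%. Coding exons held 6 summits (10.5% of summits, 11.2% of the windows) and 3' UTRs held 6 (10.5% against 5.37%). The share in 3' UTRs was 1.75% in replicate 1 and 10.9% in replicate 2. Of the pooled summits 9 (15.8%) lay in a promoter of the member itself. They were 2 each at lin-14, lin-28 and hbl-1 and 1 each at lin-41, lin-29 and lin-46. Neither the part of the windows that is own promoter nor this share over all genes was counted, so nothing is read from it. In the promoter of any gene lay 25 of the 57, against 43.2% of all nuclear pooled regions. All 4 pooled regions of q below 0.05 lay outside the promoters of lin-14 and lin-42, in 3 introns and 1 coding exon. By the same limits, though, the lin-42 intron 1 region lay in the promoter of F47F6.15, 77 bp downstream of its start. The lin-14 coding exon region lay in that of T25C12.11, a small nucleolar RNA gene, 864 bp upstream of its start.

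A copy of AGTGCA or AGGACA on either strand lay within 100 bp of 13 of the 57 pooled summits (22.8%), against 11.1% of nuclear pooled regions. The share was 21.1% in replicate 1 and 30.4% in replicate 2. By gene the 13 were 6 at lin-14, 3 at lin-41, 2 at hbl-1, 1 at lin-28 and 1 at lin-42. Of the 4 pooled member regions of q below 0.05 only the intron 1 region of lin-42 had one, against 12.7% of all nuclear pooled regions of that q-value. The windows themselves hold more copies than the genome does. When cut into tiles of 201 bases, a measure chosen after seeing the data, 106 of 610 tiles of the member windows had a hexamer (17.4%), against 11.5% of tiles of the nuclear genome. The share was highest at hbl-1 (31.6%) and lin-14 (21.5%) and lowest at lin-4 (3 of 30 tiles) and lin-29 (10.3%).

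Of 28 other genes of the pathway, all had a pooled region within 3 kb, 12 had one of q below 0.05 and 17 had one shared by both replicates. Of the 22 protein-coding ones 7 had a region of q below 0.05, or 6 of 21 without daf-12, the tagged gene, against the 13.7% given above. A shared region was found at 13 of the 22, against 36.3% of protein-coding genes, and at 3 of the 5 microRNA genes, against 29.1% of such genes. Nearly all of the 22 have windows longer than the median of 8.03 kb, and the part of window length was not tested. Among the 28, thresholded peaks were found at mir-48 and mir-241 alone, let-7 family microRNA genes that are neighbours and share regions. For these peaks too, the share over all genes was not counted. Other genes with a pooled region of q below 0.05 were let-7 (best rank 841) and mir-237 (1184), a relative of lin-4. Near its start, mab-10, which encodes a cofactor of LIN-29, had a region of rank 365 that was 54 bp downstream of a start and overlapped a replicate 1 region of rank 190 and no replicate 2 region. At nhl-2, which encodes a cofactor of microRNA silencing, a region of rank 179 lay 179 bp upstream, again with a replicate 1 region, of rank 44, and none in replicate 2. The gene of lep-5, a noncoding RNA that lowers LIN-28, had a region of rank 181. At apl-1, which encodes the worm relative of the amyloid precursor protein, the best rank was 286, and at sea-2, which encodes a zinc finger protein, it was 450. Lower still was kin-20, which encodes a casein kinase of the Doubletime family, at rank 1638. Last was ain-1, which encodes a GW182 protein of microRNA silencing, at rank 1693. The best regions of let-7, mir-237, apl-1, sea-2 and kin-20 likewise overlapped a replicate 1 region and no replicate 2 region. Those of lep-5 and ain-1 overlapped regions of both replicates. The apl-1 region lay 2980 bp upstream of the nearest apl-1 start. The tagged gene, daf-12, had 16 regions of q below 0.05 and a best rank of 52, and added copies of its sequence in the insertion cannot be told apart from binding there.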

How the data were processed

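Whole L4 larvae were profiled in 2 biological replicates of 1 group, and the deposited region lists on ce11 were used. Per the text lists deposited with the samples, each replicate list derives from that replicate's ChIP alignments and a control, the pooled list from both replicates and the control, and the thresholded list from the pooled and replicate lists. For the aligner, the peak caller and its version a name is not given in the sources used here. The authors' lists hold for each region a signal of unstated scale, a −log10 q-value and the offset of the summit from the region's start, from which the summit was placed. The lists on ce10 were not used here, and read counts, depth and the control are not analysed here.

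Genes came from Ensembl release 115 (WBcel235, the ce11 coordinates), and 0 regions ran past a chromosome end. MicroRNA symbols and the lin-4 sequence came from RefSeq on the same assembly. Coordinates are 1-based. Regions within 3 kb of a gene were counted, ranked by signal within their list and joined between lists by at least 1 bp of overlap. Counts over all annotated nuclear genes or regions stand beside the main counts of the members, and no test was made. The named genes were all 8 members, and 28 other pathway genes were counted and named where they held a pooled region of q below 0.05 or a thresholded peak. The members and lists were chosen with earlier results of these data known. Direct repeats, tiles, base composition and repeat content were measured after seeing the data. Python 3.11.15, numpy 2.4.6, pandas 2.3.3 and matplotlib 3.10.9 were used, and the joins were tested on simulated data. Alternatives changed the distance, the threshold, the overlap, the promoter limits, the hexamer window and the replicate used.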

Additional observations from a re-analysis of the deposited data

How the results depend on the processing

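Of 85 combinations of result and alternative, 59 stayed close to the reported value and 26 moved. Close means within 1.5 times for counts and densities, within the exact 95% binomial interval of the reported share for shares, and by less than 1 SD of the ranks in the 2 replicates for a best rank. With pooled regions of q below 0.05 alone, 2 members and 4 regions remained, and the share in own promoters was 0%. In the upper 50% of the pooled list by signal the members had 37 regions. At a q below 0.01 no member had a pooled region (0 of 8). With 1 replicate left out, the members with a region of q below 0.05 were 6 (without replicate 2) to 7 (without replicate 1), against 2 in the pooled list, the members with a region stayed at 8, regions were 46 to 57, the promoter share was 17.4% to 17.5% and the hexamer share was 21.1% to 30.4%. Members with a shared region were 3 within 1 kb, 3 within 2 kb, 3 at an overlap of 50% of both regions and 3 with summits within 100 bp, against 5 as reported.

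The promoter share was 7.02% with limits of 500 bp upstream and 100 bp downstream, and 43.9% with the starts of any gene. The hexamer share was 12.3% within 50 bp of the summit and 40.4% within 200 bp, against 5.46% and 21.5% of nuclear pooled regions. The pooled density, with each member left out in turn, was 0.391 (without lin-14) to 0.508 per kb (without lin-42). Of 38 alternatives to a gene's best rank 11 moved it by that SD, which is wide where the replicates differ. By over 1.5 times 16 moved it, 13 of them with a replicate left out. Of these 16, 5 are counted as close among the 59. The SD comes from the 2 replicate ranks themselves, so with a replicate left out, closeness by it shows no stability. Among the 13, the hbl-1 rank was 4.73% of the list without replicate 2 and 61.9% without replicate 1, against 22.2% as reported. Without replicate 2 the other ranks were 4.02% at lin-46, 4.63% at lin-29, 13.2% at lin-41, 24.4% at lin-28 and 1.45% at lin-42. Without replicate 1 they were 0.552% at lin-41, 9.58% at lin-4, 4.18% at lin-14, 19.4% at lin-29, 22.9% at lin-46 and 1.24% at lin-42. Reported ranks were 34.0% at lin-4, 1.26% at lin-14, 12.8% at lin-28, 21.2% at lin-41, 7.47% at lin-29, 0.727% at lin-42 and 8.55% at lin-46. The lin-4 rank rested on the distance, with 6.23% of the list within 5 kb and no region within 1 or 2 kb, and the lin-46 rank was 33.7% within 1 or 2 kb. Narrower limits and fewer regions lower such counts by construction, and the cause of the other changes was not tested. No shared region can be counted with a replicate left out. No paired analysis was possible because all samples belong to 1 group. The depth is not known, and no limit can be tied to it.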
